A study of Mus musculus with 11 samples.

Results

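miR-99a-5p, miR-100-5p and miR-125b-5p are 3 mature microRNAs encoded in a pair of homologous clusters on mouse chromosomes 16 and 9. They were taken by name (mmu-miR-99a-5p, mmu-miR-100-5p and mmu-miR-125b-5p) from the table of miRNA counts, with every hairpin row kept. They filled 4 of its 2128 rows, since miR-125b-5p is listed once for each of its hairpins, mir-125b-1 and mir-125b-2. All 4 rows were among the 545 rows, of 524 miRNAs, with enough counts to be tested.

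The counts came from small RNA sequencing of 11 libraries of CD8+ T cells from mouse spleen, enriched on CD8a microbeads and sorted as CD4- CD8+ CD49dlo GFP+. The CD44hi fraction is called stamped VM and the CD44lo fraction stamped TN, VM standing for virtual memory (memory-phenotype cells that arise without foreign antigen) and TN for true naive cells. Mice were clean or dirty. What dirty and stamped mean is not said in the labels, which also give no strain, age, sex or GFP allele. All 4 groups shared the spleen as source and the same GFP+ CD49dlo gate: there were 3 libraries each of Dirty_VM, Dirty_TN and Clean_VM, and for Clean_TN only replicates 2 and 3. Nothing says that replicates were separate animals, so p-values measure the spread between these libraries. Library totals ran from 2614396 to 16312004 counts. The T cell miRNAs miR-150-5p and miR-142a-3p were present in every library, at 66200 to 134000 and 1390 to 1970 counts-per-million (CPM) units.

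A mature miRNA guides an Argonaute protein to messenger RNAs that pair with its seed, the bases near its 5′ end, and it thereby lowers their output. The miR-99/100 family is best known for repressing Mtor, the growth kinase. The miR-125 family is abundant in haematopoietic stem cells, where raised miR-125b can drive leukaemia, and miR-125b has been tied to the naive state in CD4+ T cells. Both families lie in 3 homologous clusters, each with a let-7 gene between them.

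The mature sequences show which of these miRNAs share a seed, and hence which could act on the same targets, and how little separates some of them when reads are counted. They are RefSeq entries for GRCm38.p6 (mm10), which held all 3 miRNAs, written 5′ to 3′ with the seed (bases 2 to 8) in capitals.
miR-99a-5p: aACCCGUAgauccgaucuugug
miR-100-5p: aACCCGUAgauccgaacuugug
miR-99b-5p: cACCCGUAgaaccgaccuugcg
miR-125b-5p: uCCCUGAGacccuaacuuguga
miR-125a-5p: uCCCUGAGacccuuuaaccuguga
miR-351-5p: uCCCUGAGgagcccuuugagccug
The first 3 form the miR-99/100 seed group and the others the miR-125 seed group. With positions counted from 1 at the 5′ end, miR-99a-5p and miR-100-5p were identical over their first 15 bases and differed by U16A alone (95.5% identity). miR-99a-5p differed from miR-99b-5p by A1C, U11A, U16C and U21C (81.8% identity). miR-125b-5p shared its first 13 bases with miR-125a-5p and its first 8 with miR-351-5p, an X-linked miRNA. The table also listed miR-6367 and miR-6394, which carry the miR-125 seed, with 0 counts in all 11 libraries.

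In mm10 with GENCODE M21 the chromosome 16 cluster held Mir99a (chr16:77598936-77599000), Mirlet7c-1 (chr16:77599657-77599750) and Mir125b-2 (chr16:77646273-77646343). All lie on the plus strand in introns of the noncoding host gene Mir99ahg, with Mir99a starting 47.3 kb before Mir125b-2. The chromosome 9 cluster held Mir100 (chr9:41531425-41531504), Mirlet7a-2 (chr9:41536716-41536811) and Mir125b-1 (chr9:41581926-41582002), with 50.5 kb between the first and last starts. These lie in introns of the noncoding genes 3110039I08Rik and Gm49317, and Mir125b-1 also lies in the single exon of a sense-intronic transcript, Gm28119. The chromosome 17 cluster is far tighter. Its Mir99b (chr17:17830188-17830257) and Mir125a (chr17:17830812-17830879) start 624 bases apart within Spaca6, with Mirlet7e between them.

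The close sequences left a mark on the counts. In the same 5 libraries the values of miR-99a-5p and miR-100-5p both ended in 0.5, and their sum was a whole number in all 11, so some reads had been divided between this pair. Their separate levels therefore depend in part on that division, whose rule was not given in the sources used here. The rows of miR-125b-5p were equal in 4 libraries and at most 11 counts apart elsewhere (at most 2.27% of their sum). Where they differed the mir-125b-1 row was the higher, by 29 counts summed over the libraries. One mature sequence comes from both hairpins, so these rows are not separate measurements of the chromosome 9 and chromosome 16 copies.

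miR-99a-5p was the most abundant of the 3, at a mean of 70.4 CPM over the 11 libraries (rank 152 of the 545 rows). The mir-125b-1 and mir-125b-2 rows of miR-125b-5p, between which its reads are divided, had 28 and 27.7 CPM (ranks 194 and 195). Summed, they came to 55.7 CPM, above miR-100-5p at 46.2 CPM (rank 175), although each row alone was below it. The mature forms are of like length (22 bases for the 3 miRNAs and 24 for miR-125a-5p), so no scaling by length was made. The paralogs miR-99b-5p, at 139 CPM, and miR-125a-5p, at 175 CPM, were higher on this mean, but not in every group. In Clean_VM and Dirty_VM the mean of miR-99b-5p (72.5 and 66.2 CPM) and that of miR-125a-5p (63.1 and 73 CPM) were below that of miR-99a-5p (79.5 and 81.4 CPM) by less than the SD of miR-99a-5p. In bulk RNA such as this, fewer cells of a type and less RNA per cell cannot be told apart.

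miR-99a-5p stood at 69.0 and 45.8 CPM in Clean_TN replicates 2 and 3, and at 44.6, 101.6 and 92.5 CPM in Clean_VM replicates 1, 2 and 3. In dirty mice it stood at 49.2, 38.1 and 89.2 CPM in TN and at 101.7, 42.7 and 99.8 CPM in VM cells. The high libraries were in 3 of the 4 groups, each of which also held a library under 50 CPM, so TN and VM values overlapped in both environments. Group means were 57.4 ± 16.4 (SD, n = 2), 79.5 ± 30.6 (n = 3), 58.8 ± 26.9 (n = 3) and 81.4 ± 33.5 CPM (n = 3) in Clean_TN, Clean_VM, Dirty_TN and Dirty_VM.

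miR-100-5p had 39.9 and 35.5 CPM in Clean_TN, and 31.7, 79.4 and 50.8 CPM in Clean_VM. Its dirty libraries had 32.6, 35.8 and 49.7 CPM in TN and 61.3, 32.1 and 60.0 CPM in VM cells. Clean_VM replicate 2 was the highest library, while the lowest library of each VM group lay below every Clean_TN library. Means were 37.7 ± 3.07 (SD, n = 2), 53.9 ± 24 (n = 3), 39.4 ± 9.06 (n = 3) and 51.1 ± 16.5 CPM (n = 3) in the same order.

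The mir-125b-1 row of miR-125b-5p gave 23.9 and 19.9 CPM in Clean_TN and 15.0, 41.5 and 33.8 CPM in Clean_VM. It gave 22.5, 17.3 and 34.0 CPM in Dirty_TN and 42.8, 18.5 and 38.6 CPM in Dirty_VM. Clean_VM replicates 2 and 3, Dirty_TN replicate 3 and Dirty_VM replicates 1 and 3 were at 33.8 CPM or above, and the other 6 at 23.9 CPM or below. Its group means were 21.9 ± 2.81 (SD, n = 2), 30.1 ± 13.6 (n = 3), 24.6 ± 8.53 (n = 3) and 33.3 ± 13 CPM (n = 3), and the mir-125b-2 row had 21.8 ± 2.68, 30.1 ± 13.5, 24.3 ± 8.31 and 32.6 ± 13.1 CPM. In the order of means each miRNA was lowest in Clean_TN, then Dirty_TN, and highest in a VM group, but neighbouring means differed by less than the SD of at least one group of each pair.

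**Figure D1:**
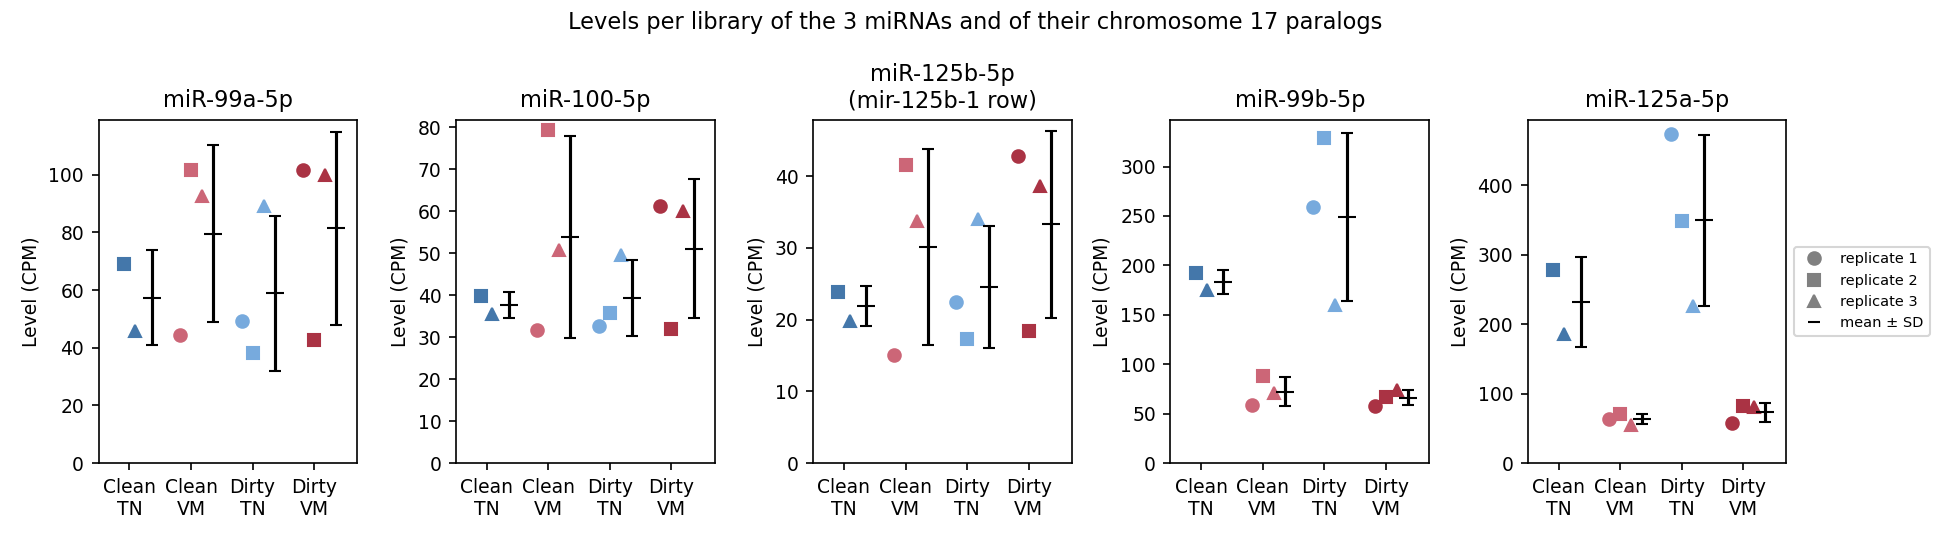
Level in CPM (vertical axes, from 0) of the 3 miRNAs and of their chromosome 17 paralogs in each of the 11 libraries, by group; points are libraries, with the replicate number as shape, and bars are group means ± SD (n = 2 in Clean_TN, 3 elsewhere). miR-99a-5p, miR-100-5p and miR-125b-5p overlap between TN and VM, while every VM library of miR-99b-5p and miR-125a-5p lies below every TN library.

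The coefficient of variation within groups ran from 8.14% (miR-100-5p in Clean_TN) to 45.7% (miR-99a-5p in Dirty_TN), and Poisson counting error was at most 15.2% in any library of the 4 rows. In Clean_TN, with 2 libraries, the spread of miR-100-5p and of the miR-125b-5p rows was about that of counting (8.14% against up to 9.21% for miR-100-5p), and in the other 3 groups the spread of every row was above it. The biological coefficient of variation in the fitted model was 37.6% for miR-99a-5p, 32% for miR-100-5p and 36.9% for the mir-125b-1 row, against a median of 32.4% over all tested rows. Over all libraries the highest level was 2.67 times the lowest for miR-99a-5p, 2.51 times for miR-100-5p and 2.85 times for the mir-125b-1 row. This range was not spread evenly over library depth. miR-99a-5p ran from 49.2 to 102 CPM in the 6 deeper libraries, those above 5000000 counts. Of the 5 shallower ones, Dirty_VM replicate 1 was at 101.7 CPM and the others at 38.1 to 45.8 CPM, under every deeper library. For the mir-125b-1 row that library was at 42.8 CPM and the other shallower ones at 15.0 to 19.9 CPM. Its deeper libraries ran from 22.5 to 41.5 CPM. miR-100-5p overlapped more, at 32.6 to 79.4 CPM in the deeper and 31.7 to 61.3 CPM in the shallower libraries. The effect of depth on these levels was not itself tested, but a depth class term was tried in the comparisons below.

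VM cells were first compared with TN cells over both environments, each weighted equally. None of the 4 rows passed an adjusted p of 0.05, where 23.7% of all tested rows did. For miR-99a-5p the log2 difference was 0.47 ± 0.30 (SE), with a 95% interval of -0.18 to 1.12 (edgeR quasi-likelihood adjusted p = 0.29). It was 0.45 ± 0.25 for miR-100-5p, with an interval of -0.09 to 0.99 (edgeR adjusted p = 0.221). The mir-125b-1 row had 0.45 ± 0.29, with an interval of -0.18 to 1.09 (edgeR adjusted p = 0.291), and the mir-125b-2 row 0.45 ± 0.29 (edgeR adjusted p = 0.295). All 4 intervals include 0, with upper ends between 0.99 and 1.12, and the median over all tested rows was 0.09. Within the 6 deeper libraries the differences were 0.53, 0.61 and 0.55 for miR-99a-5p, miR-100-5p and the mir-125b-1 row, and within the 5 shallower ones 0.37, 0.07 and 0.15. With depth class as a term in the fit they were 0.53, 0.46 and 0.49 (edgeR adjusted p = 0.105, 0.137 and 0.144). In clean mice alone this term gave 0.30, 0.40 and 0.30, and in dirty mice 0.76, 0.52 and 0.69, with no adjusted p under 0.05. With each library left out in turn the averaged differences ran from 0.27 to 0.67, from 0.16 to 0.57 and from 0.21 to 0.60.

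Within clean mice, where 17.4% of rows passed, the VM minus TN log2 differences were 0.47 ± 0.45 for miR-99a-5p (edgeR adjusted p = 0.501), 0.52 ± 0.37 for miR-100-5p (0.354) and 0.47 ± 0.44 for the mir-125b-1 row (0.493). Leaving out Clean_VM replicate 2 brought these to 0.11, -0.02 and 0.02, and leaving out Clean_VM replicate 1 to 0.80, 0.83 and 0.83. Without Clean_TN replicate 3, miR-99a-5p had 0.09. Among the shallower libraries, with 1 of each group in clean mice, the differences were -0.04, -0.16 and -0.38, against 0.48, 0.66 and 0.63 among the deeper ones. Within dirty mice, where 12.1% passed, the corresponding values were 0.47 ± 0.40 (edgeR adjusted p = 0.528), 0.38 ± 0.33 (0.528) and 0.44 ± 0.39 (0.535). They ran from 0.19 (without Dirty_TN replicate 2) to 0.98, from 0.15 to 0.67 and from 0.14 to 0.83 with each library left out, the highest each without Dirty_TN replicate 3 and the lowest of miR-100-5p and miR-125b-5p without Dirty_VM replicate 1. The mir-125b-2 row had 0.47 ± 0.44 (edgeR adjusted p = 0.493) in clean and 0.43 ± 0.39 (0.549) in dirty mice. In neither environment did TN and VM libraries separate for any of the 4 rows, whereas they did for 52.7% of all tested rows in clean and 30.5% in dirty mice.

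The next question was whether levels differed between dirty and clean mice. None of the 4 rows passed in TN cells, where 0% of all rows did, or in VM cells, where again 0% did. Over all rows, unadjusted edgeR p-values under 0.05 numbered 38 in TN and 81 in VM cells, and DESeq2 called 3 and 22 rows. In TN cells the dirty minus clean log2 difference was 0.04 ± 0.45 for miR-99a-5p (edgeR adjusted p = 0.974), 0.06 ± 0.37 for miR-100-5p (0.959) and 0.17 ± 0.44 for the mir-125b-1 row (0.912). For VM cells it was 0.04 ± 0.40 (edgeR adjusted p = 0.969), -0.08 ± 0.33 (0.944) and 0.14 ± 0.39 (0.902) in the same order. The mir-125b-2 row had 0.16 ± 0.44 in TN and 0.12 ± 0.39 in VM cells (edgeR adjusted p = 0.912 and 0.924). These differences were near 0 with wide intervals, for instance from -0.93 to 1.00 for miR-99a-5p in TN cells, and the sign of several turned with other scaling or with 1 library left out.

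The interaction asked whether the VM minus TN difference itself changed from clean to dirty mice. It passed for none of the 4 rows and for 0% of all rows, with 93 unadjusted edgeR p-values under 0.05 and 41 DESeq2 calls. miR-99a-5p had -9e-04 ± 0.60, with an interval of -1.29 to 1.29 (edgeR adjusted p = 1). The estimates for miR-100-5p and the mir-125b-1 row were -0.14 ± 0.50 and -0.03 ± 0.58 (edgeR adjusted p = 0.952 and 0.987). The mir-125b-2 row had -0.05 ± 0.59 (edgeR adjusted p = 0.98). Without Dirty_TN replicate 3, a high library for all 3 miRNAs, 73 of all rows passed the interaction, 28 the dirty minus clean comparison in TN cells and 26 that in VM cells, but none of these miRNAs did.

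**Figure D2:**
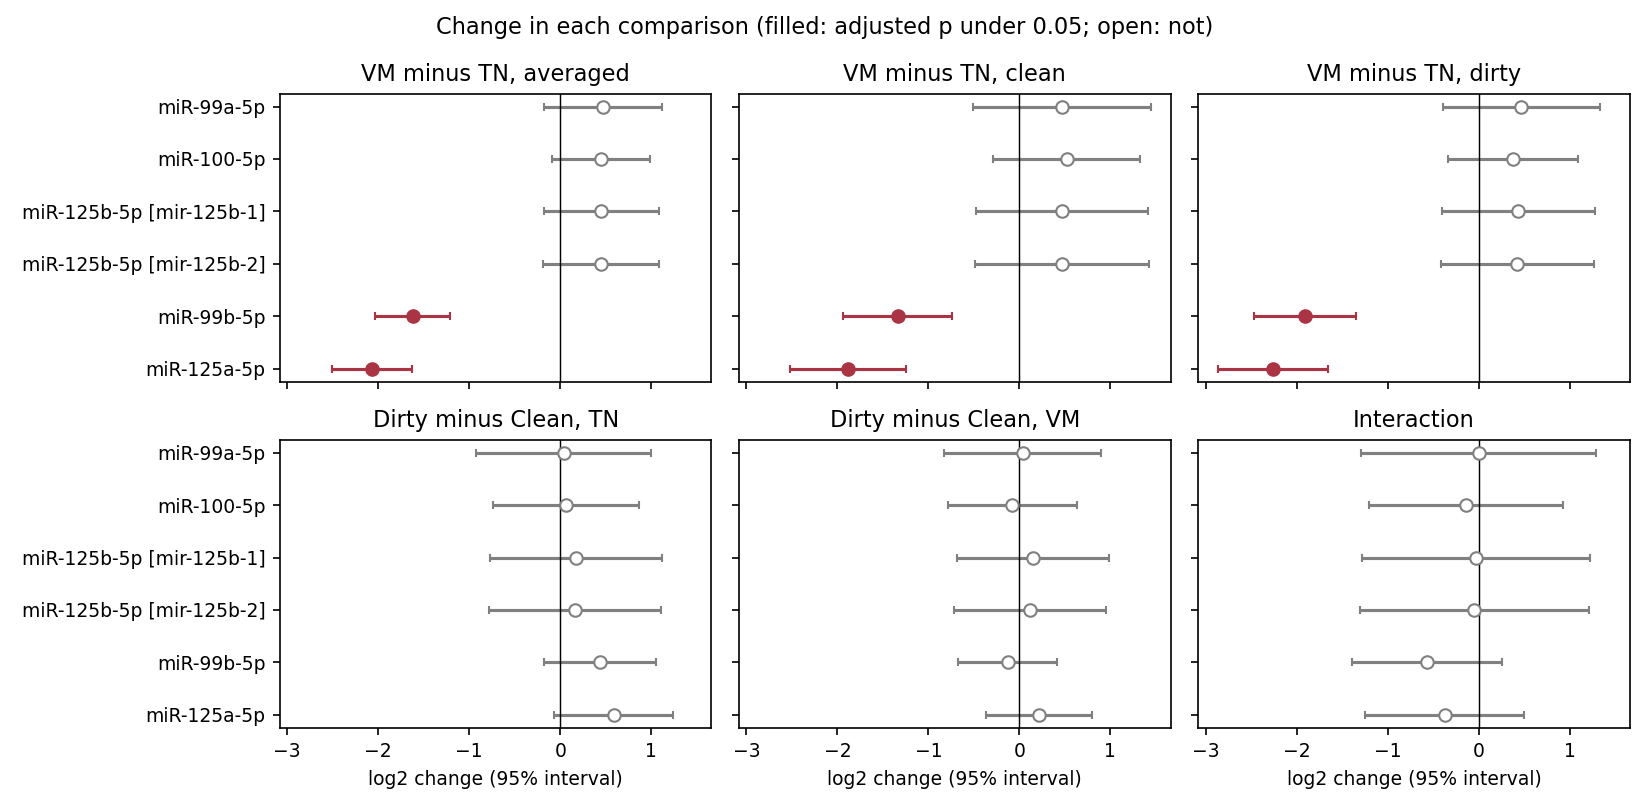
Log2 difference with its 95% interval (horizontal axes) for the 4 rows of the 3 miRNAs and for miR-99b-5p and miR-125a-5p, 1 panel for each of the 6 comparisons; filled points passed an adjusted p of 0.05. Every interval of the 3 miRNAs spans 0, and the filled points are the paralogs in the 3 comparisons of VM with TN cells.

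The paralogs of the chromosome 17 cluster did differ between VM and TN cells. miR-125a-5p stood at 279 and 187 CPM in Clean_TN, and at 63.6, 70.1 and 55.5 CPM in Clean_VM. Its levels in dirty mice were 474, 349 and 227 CPM in TN and 57.1, 81.8 and 80.2 CPM in VM cells, so that the libraries did not overlap. miR-99b-5p went from 192 and 175 CPM in Clean_TN to 58.8, 87.9 and 70.8 CPM in Clean_VM, and from 259, 329 and 160 CPM in Dirty_TN to 58.3, 66.6 and 73.8 CPM in Dirty_VM. Averaged over environments miR-125a-5p fell by 2.07 ± 0.20 on the log2 scale (edgeR adjusted p = 7.8e-06) and miR-99b-5p fell by 1.62 ± 0.19 (3.8e-05).

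Of the other miRNAs of that cluster, miR-125a-3p, the partner strand of miR-125a-5p, fell by 1.69 ± 0.53 (edgeR adjusted p = 0.0364). Its levels were low, at 0 to 4.9 CPM, and it did not pass in clean or in dirty mice alone (edgeR adjusted p = 0.278 and 0.0846). miR-99b-3p had -0.56 ± 0.50 (edgeR adjusted p = 0.433) and let-7e-5p -0.40 ± 0.19 (0.163). By environment let-7e-5p had -0.02 in clean and -0.77 in dirty mice (in dirty mice, edgeR adjusted p = 0.0788 and DESeq2 adjusted p = 0.0268). The X-linked miR-351-5p, of the miR-125 seed group, fell by 1.48 ± 0.34 (edgeR adjusted p = 0.00733) from low levels of 7.23 to 24.9 CPM in TN libraries. The let-7 miRNAs that lie beside Mir99a and Mir100 did not pass: let-7c-5p had -0.22 ± 0.17 (edgeR adjusted p = 0.38) and the let-7a-2 row of let-7a-5p 0.08 ± 0.17 (0.753). These averages join opposite signs. The let-7c-1 row had 0.19 in clean and -0.62 in dirty mice, and the let-7a-2 row 0.51 and -0.34. None of these passed in edgeR, nor did the interactions (edgeR adjusted p = 0.244 and 0.24), while DESeq2 called the let-7c-1 row in dirty mice (adjusted p = 0.046). Both let-7 sequences are also made from other hairpins, so their counts do not report these clusters alone.

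Setting each miRNA against its paralog within a library removes library scaling. The log2 ratio of miR-99a-5p to miR-99b-5p was -1.47 and -1.93 in Clean_TN, and -0.40, 0.21 and 0.39 in Clean_VM. In Dirty_TN it was -2.39, -3.10 and -0.84, and in Dirty_VM 0.80, -0.64 and 0.44. Every VM library lay above every TN library, with the highest TN library, Dirty_TN replicate 3, just under the lowest VM library, Dirty_VM replicate 2. The ratio was 4.12-fold higher in VM cells, a log2 difference of 2.04 against a pooled SD of 0.78 within groups (two-sided exact permutation test within environments, p = 0.005, adjusted p = 0.015 over 6 tests). The smallest p these 200 permutations can give is 0.005.

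The ratio of miR-100-5p to miR-99b-5p was 3.96-fold higher in VM cells, a log2 difference of 1.99 with a pooled SD of 0.57 (exact permutation p = 0.005, adjusted p = 0.015). In clean mice it was -2.28 ± 0.02 (SD, n = 2) for TN and -0.51 ± 0.38 (n = 3) for VM cells, and in dirty mice -2.62 ± 0.82 (n = 3) for TN and -0.42 ± 0.57 (n = 3) for VM cells. For the summed rows of miR-125b-5p against miR-125a-5p the ratio was 5.3-fold higher in VM cells, a log2 difference of 2.41 with a pooled SD of 0.81 (exact permutation p = 0.01, adjusted p = 0.02). Its group means were -2.39 ± 0.22 (SD, n = 2), -0.18 ± 0.77 (n = 3), -2.82 ± 0.93 (n = 3) and -0.22 ± 0.88 (n = 3) in the same order. In both ratios, too, all VM libraries lay above all TN libraries.

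Each ratio contains the fall of its paralog, so the 3 results are not independent of it or, for those over miR-99b-5p, of each other. Within the 6 deeper libraries the log2 differences were 1.91, 2.00 and 2.66, and within the 5 shallower ones 2.36, 2.06 and 2.09, in the order given. Between dirty and clean mice the ratios differed by -0.14, -0.13 and -0.23, all within the spread between libraries (exact permutation p = 0.775, 0.725 and 0.595, with an adjusted p of 0.775 for each).

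**Figure D3:**
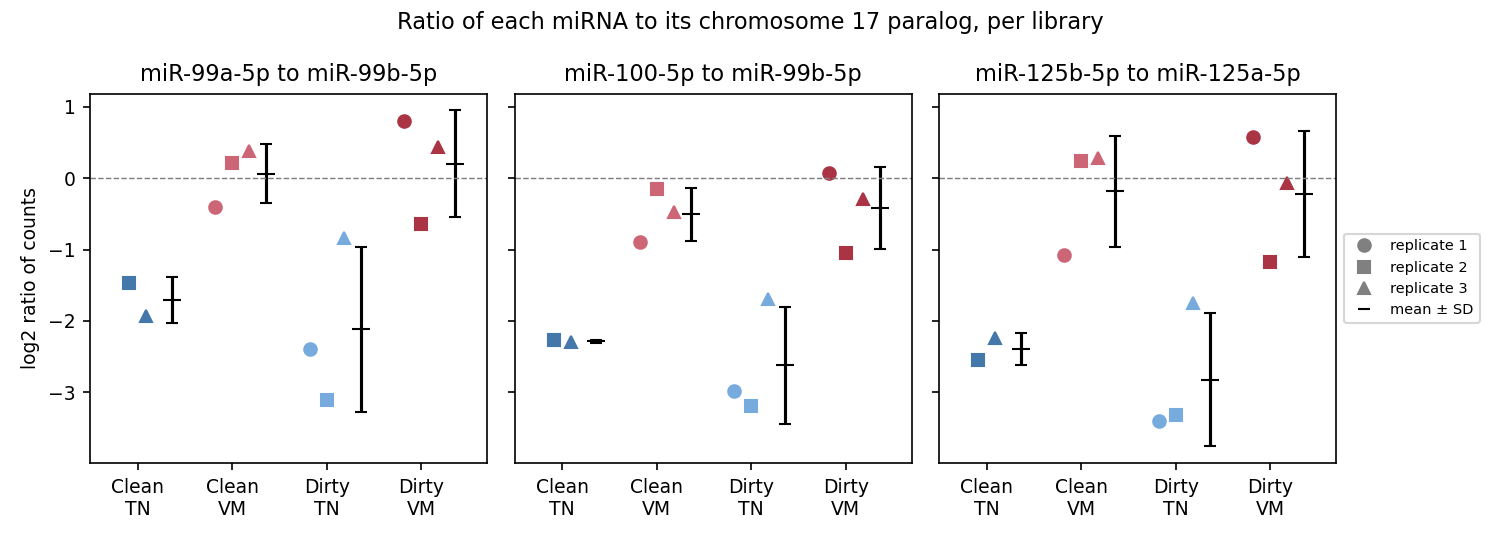
Log2 ratio of counts (vertical axis, pseudocount 0.5) of each of the 3 miRNAs to its chromosome 17 paralog, by group; points are libraries, bars are group means ± SD and the dashed line marks equal counts. TN libraries lie between -3.41 and -0.84 over the 3 panels, and within each panel every VM library lies above every TN library.

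The makeup of the seed groups followed these ratios. miR-99a-5p and miR-100-5p together held 34% ± 3.13 (SD, n = 2) of the miR-99/100 seed counts in Clean_TN and 63.6% ± 6.16 (n = 3) in Clean_VM, and 29.6% ± 14.8 (n = 3) in Dirty_TN and 65% ± 10.8 (n = 3) in Dirty_VM. miR-125b-5p held 15.4% ± 2.21, 45.8% ± 12.2, 13% ± 7.82 and 44% ± 13.6 of the miR-125 seed counts in the 4 groups. The whole miR-99/100 seed group summed to 278 ± 31.7 CPM in Clean_TN, 206 ± 67.3 in Clean_VM, 347 ± 52.1 in Dirty_TN and 199 ± 50 in Dirty_VM. The miR-125 seed group summed to 288 ± 76.7, 127 ± 30.6, 416 ± 119 and 146 ± 21.1 CPM. These shares and sums are descriptions of the values already tested, and no further test was made on them.

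**Figure D4:**
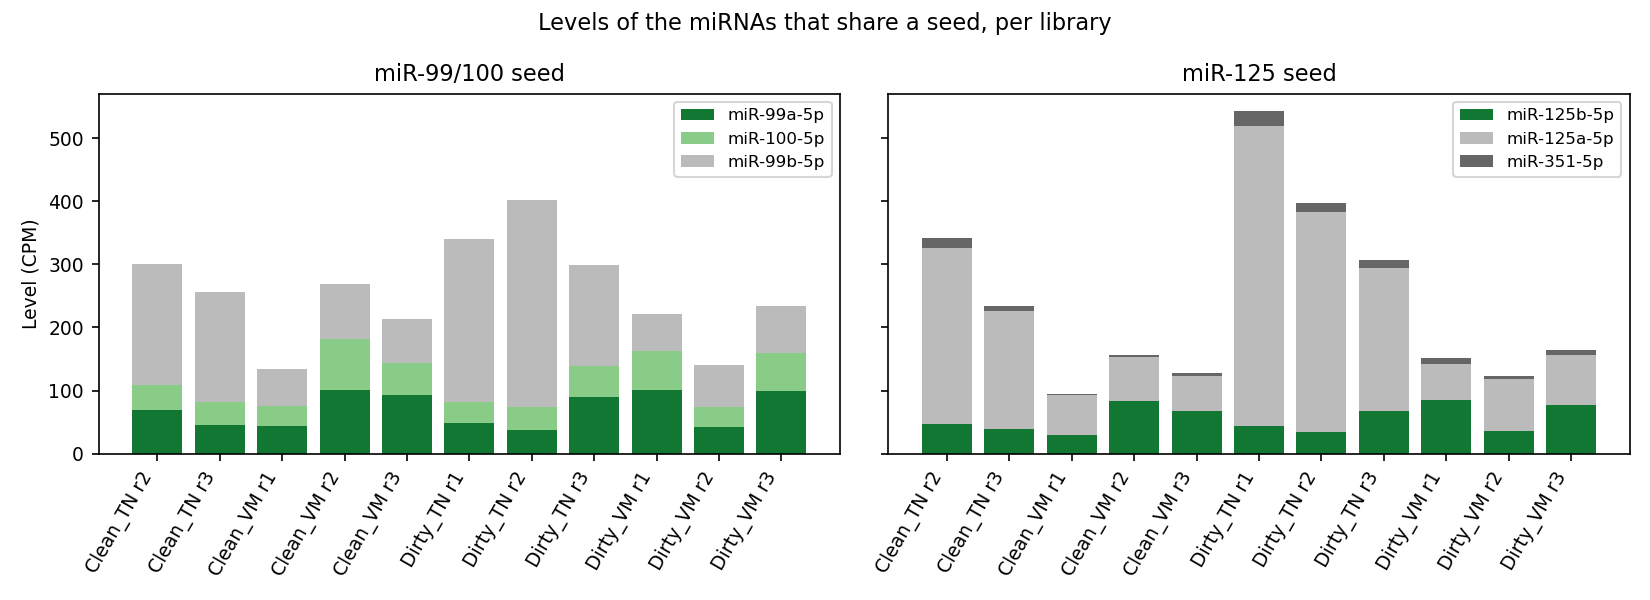
Summed level in CPM (vertical axis, from 0) of the miRNAs that carry the miR-99/100 seed (left) or the miR-125 seed (right) in each of the 11 libraries, stacked by miRNA; r2 stands for replicate 2 and so on. The grey parts, the miRNAs encoded elsewhere, are larger in every TN library than in any VM library, while the green parts, the 3 miRNAs, show no such order.

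The 3 miRNAs varied together from library to library. The rows of miR-125b-5p were summed for this. On log2(CPM + 1) over the 11 libraries, miR-99a-5p and miR-125b-5p had a Pearson's r of 0.97 (permutation p = 7.0e-05, adjusted p = 1.0e-04 over 3 pairs) and a Spearman's rho of 0.97 (permutation p = 2.0e-05, adjusted p = 6.0e-05). For miR-100-5p and miR-125b-5p r was 0.94 (permutation p = 2.0e-05, adjusted p = 6.0e-05) and rho 0.93 (permutation p = 9.0e-05, adjusted p = 1.3e-04). miR-99a-5p and miR-100-5p, which share divided reads, had an r of 0.91 (permutation p = 3.0e-04, adjusted p = 3.0e-04) and a rho of 0.88 (permutation p = 8.2e-04, adjusted p = 8.2e-04).

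Without the 2 libraries farthest from the median, r was 0.96, 0.94 and 0.92 in that order. After each group's mean was subtracted it was 0.97, 0.94 and 0.9, and within the 6 deeper libraries 0.94, 0.95 and 0.9, while the 5 shallower ones were too few. The shared pattern was therefore also present among libraries of the same group. On library totals without TMM scaling r was 0.97, 0.95 and 0.94. Their proportions moved less than their levels: miR-99a-5p was 1.06 to 1.82 times miR-100-5p (median 1.51) and 1.1 to 1.48 times the summed miR-125b-5p (median 1.23).

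Among 259 other rows with a mean of 10 CPM or more, those with the most similar pattern over the 11 libraries were drawn from 4 miRNAs. For miR-99a-5p they were miR-127-3p (r = 0.91), from the imprinted Dlk1-Dio3 cluster, miR-451a (0.84), an erythroid miRNA, and miR-122-5p (0.81), the main hepatocyte miRNA. For miR-100-5p they were miR-451a (r = 0.85), miR-122-5p (0.76) and miR-126a-3p (0.75), an endothelial miRNA encoded in Egfl7. miR-125b-5p had miR-451a (r = 0.89), miR-127-3p (0.82) and miR-122-5p (0.81). These r values are the highest of 259, share the libraries and their scaling, and are given as a description.

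miR-451a showed the pattern at low levels. It had 16.9 and 13.3 CPM in Clean_TN, 5.37, 28.1 and 17.3 in Clean_VM, 9.77, 10.4 and 26.5 in Dirty_TN and 22.9, 13.6 and 24.1 in Dirty_VM. Its lowest library, Clean_VM replicate 1, was also the lowest for miR-125b-5p and for miR-100-5p, and its highest, Clean_VM replicate 2, was the highest for miR-100-5p. Between VM and TN cells, averaged over environments, miR-451a had a log2 difference of 0.27 ± 0.38 (edgeR adjusted p = 0.638) and miR-127-3p 0.59 ± 0.46 (0.382). miR-122-5p rose by 0.76 ± 0.26 (0.0482) and miR-126a-3p by 0.87 ± 0.24 (0.0208). Neither miR-122-5p nor miR-126a-3p passed in clean (edgeR adjusted p = 0.0568 and 0.0856) or in dirty mice alone (0.595 and 0.169).

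**Figure D5:**
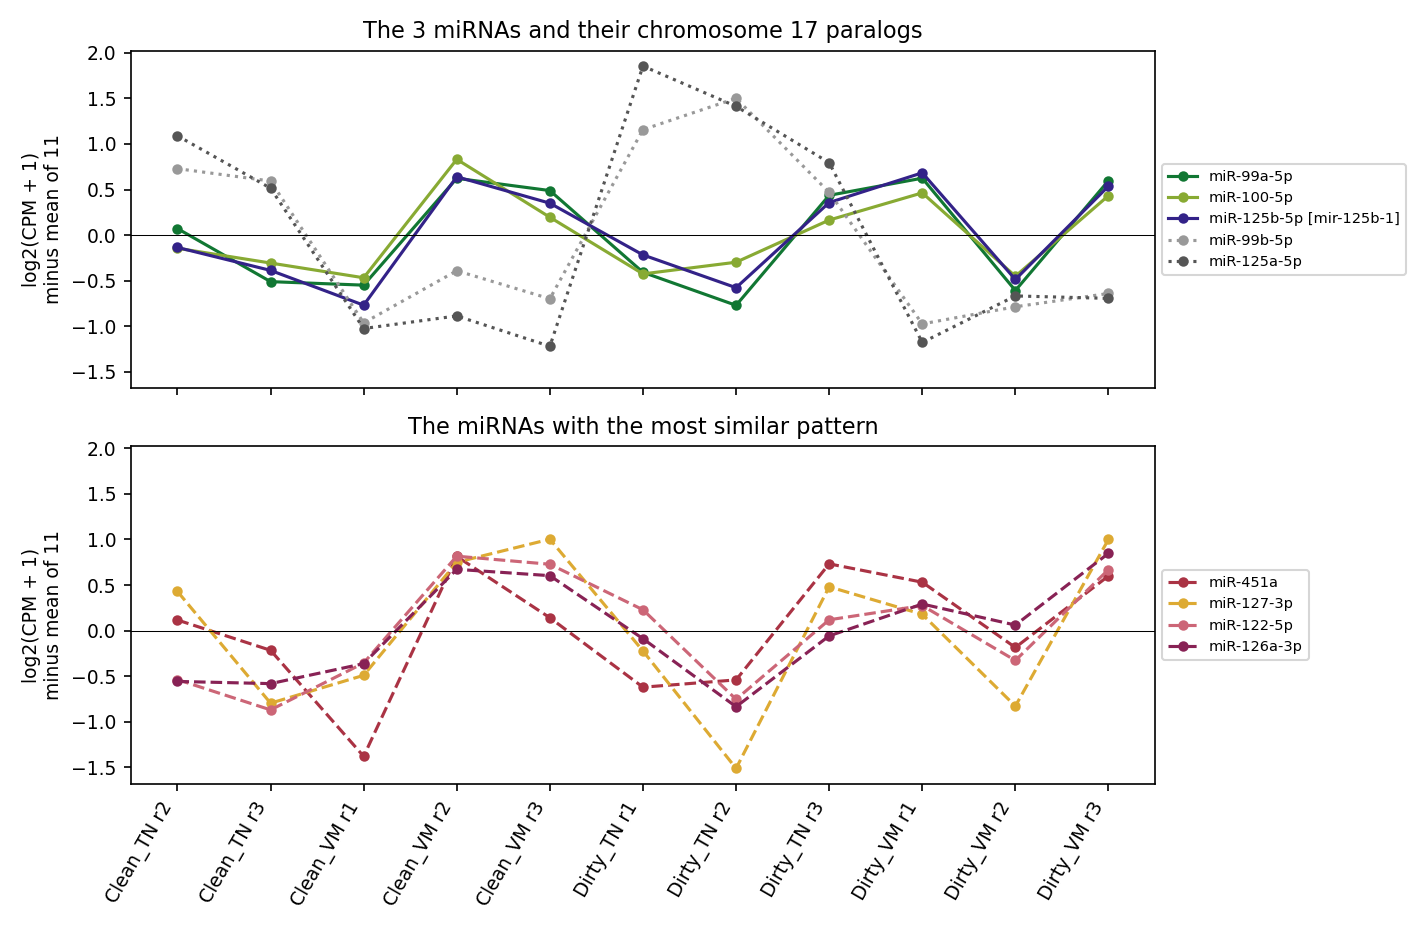
log2(CPM + 1) less the mean of the 11 libraries (vertical axes) in each library, for the 3 miRNAs and their chromosome 17 paralogs (top) and for the 4 miRNAs with the most similar pattern (bottom). The 3 miRNAs rise and dip in the same libraries as each other, the paralogs are high in TN libraries, and miR-451a, miR-127-3p, miR-122-5p and miR-126a-3p are likewise above their means at Clean_VM replicate 2 and below them at Dirty_TN replicate 2.

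Since several of these are known from cells other than T cells, whole lists of such miRNAs were summed in each library. Members given as higher or lower are those called in the averaged comparison of VM with TN cells. The hepatocyte and muscle list (4 of 4 tested, 1 of them, miR-122-5p, higher in VM cells) summed to 860 to 1090 CPM in Clean_TN, 1220 to 2760 in Clean_VM, 928 to 1840 in Dirty_TN and 1250 to 2490 in Dirty_VM. The endothelial list (2 of 2 tested, 1 higher) summed to 18.4 to 19.3, 21.7 to 47.7, 15.3 to 29.7 and 29.6 to 53 CPM. For these lists r with miR-99a-5p was 0.81 and 0.81, with miR-100-5p 0.77 and 0.78, and with miR-125b-5p 0.82 and 0.82. miR-122-5p made up 98.5 to 99.5% of the hepatocyte and muscle sum and miR-126a-3p 89 to 100% of the endothelial sum, so these r values largely repeat those of single miRNAs already named.

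The stromal list (6 of 8 tested, miR-143-3p higher) ran from 41.3 to 54, 63.9 to 108, 49.6 to 76.6 and 78.1 to 113 CPM in the 4 groups, with r from 0.72 to 0.77. Its miR-214-5p was at 0 in all 11 libraries, and miR-199a-5p reached at most 0.273 CPM. Most of the stromal sum was miR-143-3p, at a mean of 61.1 CPM. The erythroid list (4 of 5 tested, miR-486a-5p and miR-486b-5p higher) ran from 59.9 to 76.8, 129 to 261, 69.2 to 148 and 122 to 200 CPM, with r from 0.6 to 0.62. Its miR-144-3p stayed at or below 0.501 CPM. Most of the erythroid sum was miR-486a-5p and miR-486b-5p (means of 58.4 and 65.4 CPM), with miR-451a at a mean of 17.1 CPM.

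The myeloid list (1 of 2 tested, none called) was at most 3.61 CPM in any library, with r from 0.54 to 0.74. The epithelial list (7 of 7 tested, miR-200a-3p and miR-429-3p higher) ran from 2170 to 3760 CPM with r from -0.25 to -0.13, and the T cell list (5 of 5 tested, miR-142a-5p and miR-181a-5p lower) from 76100 to 147000 CPM with r from 0.13 to 0.18. Most of the T cell sum was miR-150-5p, at a mean of 97100 CPM. The sort was gated on CD4- CD8+ cells, and what part RNA of other cells had in the levels of the 3 miRNAs was not tested.

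The partner strands of these hairpins were close to absent. miR-99a-3p and miR-100-3p had 0 counts in all 11 libraries, which allows up to 0.0356 CPM over the pooled 84180153 counts, or 0.18 to 1.23 CPM in a single library, counting error alone. The 3p strands of the miR-125b hairpins differ in sequence, and so tell the hairpins apart where the shared 5p strand cannot.
miR-125b-1-3p: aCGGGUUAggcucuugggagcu
miR-125b-2-3p: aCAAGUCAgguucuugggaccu
They differ by G3A, G4A, U7C, C11U and G20C, the base of miR-125b-1-3p first (77.3% identity). miR-125b-2-3p, from chromosome 16, had 40 counts over 7 libraries and miR-125b-1-3p, from chromosome 9, 3 counts over 2 libraries. Set against the summed 5236 counts of the shared 5p strand, miR-125b-2-3p made up 0.758% of both strands (exact 95% binomial interval 0.542 to 1.03%) and miR-125b-1-3p 0.0573% (0.0118 to 0.167%). These intervals cover counting error over the pooled libraries only, without molecular identifiers or the spread between libraries. For the paralogs, each set against the 5p counts of its own hairpin alone, the 3p share was 0.909% at miR-99b and 1.36% at miR-125a. The small excess between the 5p rows lay the other way, with 29 more counts in the mir-125b-1 row, and its source was not tested. The 5p counts of each miR-125b hairpin are not known, so its own 3p share may be higher than given here. The 3p counts of the miR-125b hairpins, at most 13 in any library, were too low for a comparison between groups.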

How the data were processed

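The authors deposited 1 table of expected counts (estimated counts) per mature miRNA and hairpin for 11 libraries, without scaling between them, and 88.7% of its values were whole. The genome build was mm10 per the submitters' processing notes, and the sources used here name no aligner or counting program. Of 2128 rows, 120 repeats with identical name and values were removed, and counts were rounded. Rows were filtered with filterByExpr (545 left). One quasi-likelihood model with robust fitting, TMM scaling and 1 mean per group was fitted in edgeR 4.0.16 with R 4.3.3, two-sided, with Benjamini-Hochberg adjustment over all 545 rows and a threshold of 0.05. CPM values use TMM-scaled totals. SE is the absolute log2 difference divided by the square root of F. Ratios used counts plus 0.5, permuted within environment or within subset. Correlations used 100000 permutations. Named miRNAs were the 3 members, their 3p arms, their cluster neighbours and paralogs, miRNAs of the same seed, and for each member the 3 most similar miRNAs. Members and lists were chosen with earlier results of these data known. Alternatives comprised DESeq2 1.42.0, other scaling and filters, summed rows, the replicate number as a block, a depth term, fits of only the groups compared, and leaving out each library. Scripts were tested on simulated data.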

Additional observations from a re-analysis of the deposited data

How the results depend on the processing

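The members' differences were recomputed 488 times over 21 settings, and none had an adjusted p under 0.05 (smallest 0.0591). In these settings the differences between VM and TN cells kept their sign except that of miR-100-5p in clean mice, which ran from -0.0196 to 0.83 with each library left out. Among the shallower libraries alone, which were not refitted, the differences in clean mice were below 0 for all 4 rows (-0.04 for miR-99a-5p, -0.16 for miR-100-5p and -0.38 for both miR-125b-5p rows). The 3 ratios to the paralogs kept their direction and stayed past the threshold in VM against TN cells with each library left out, between 1.79 and 2.36, 1.84 and 2.22, and 2.21 and 2.67 on the log2 scale. The differences near 0 turned sign. In TN cells, dirty minus clean, miR-99a-5p had -0.029 with DESeq2, -0.0287 with DESeq2 size factors, -0.0904 on library totals, -0.0071 without a filter, -0.0211 at 10 CPM, -0.0222 with rows summed, -0.11 with a depth term and -0.0348 in a fit of only the groups compared. There miR-100-5p had -0.0062, -0.0065 and -0.0794 with the first 3 of these, -0.0076 at 10 CPM, -0.0118 with a depth term and -0.0089 with only the groups compared. In VM cells miR-99a-5p had -0.0294 with DESeq2, -0.0291 with its size factors, -0.0577 without a filter and -0.10 with rows summed, miR-100-5p 0.0439 on library totals and 0.11 with a depth term, and miR-125b-5p -0.0046 with rows summed. The interaction was 0.25, 0.12, 0.23 and 0.22 on library totals for miR-99a-5p, miR-100-5p and the mir-125b-1 and mir-125b-2 rows, and 0.46, 0.12, 0.39 and 0.37 with a depth term. At 10 CPM it was 0.0426 for miR-99a-5p and 0.0228 and 0.0076 for the miR-125b-5p rows. The cause of these changes was not tested.

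With each library left out, dirty minus clean in TN cells ran from -0.62 to 0.29 for miR-99a-5p, -0.37 to 0.0754 for miR-100-5p, and -0.36 to 0.29 and -0.37 to 0.27 for the miR-125b-5p rows. In VM cells it ran from -0.42 to 0.30, -0.51 to 0.37, -0.34 to 0.49 and -0.37 to 0.46, and the interaction from -0.40 to 0.62, -0.51 to 0.36, -0.45 to 0.47 and -0.47 to 0.45. The dirty minus clean ratios ran from -0.45 to 0.11, -0.36 to 0.0289 and -0.50 to 0.0033. Over all tested rows, calls between VM and TN cells ran from 33 to 120 in clean mice (33 without Clean_TN replicate 3) and from 42 to 94 in dirty mice (42 without Dirty_VM replicate 3). Calls ran from 0 to 28 (dirty minus clean, TN), 0 to 26 (VM) and 0 to 73 (interaction), the highest each without Dirty_TN replicate 3. DESeq2 called 3, 22 and 41 rows in these comparisons, no filter 4, 16 and 30, library totals 2 in VM cells, the 10 CPM filter 2 in VM cells and 16 for the interaction, and a fit of only the groups compared 18 in VM cells.

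Replicate numbers were not treated as pairs, since the labels tie them to nothing shared. Same-numbered TN and VM libraries had residual correlations from -0.50 to 0.37 (3 of 5 positive). Means of only 2 or 3 libraries were subtracted for this, so the values depend on each other and cannot show whether pairs exist. miR-99a-5p and miR-125b-5p were higher in VM in 5 of 5 same-numbered libraries and miR-100-5p in 4 of 5. With the replicate number as a block, calls between VM and TN in clean mice were 56, the interaction of miR-99a-5p was 0.0242, and the averaged VM minus TN differences were 0.50 for miR-99a-5p and miR-100-5p and 0.48 for miR-125b-5p. A replicate block per environment gave 0.62, 0.55 and 0.60 (edgeR adjusted p = 0.0591, 0.0908 and 0.064); it cannot estimate the comparisons of dirty with clean mice. With 2 or 3 libraries a group and no pairing, the differences in level of the 3 miRNAs themselves were within the spread between libraries. Their ratios to the paralogs in VM against TN cells were not. A count of 0 allowed levels of up to 0.18 to 1.23 CPM per library.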
